A study of Mus musculus with 10 samples.

Results

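The genes described here are the sorting nexins (Snx) and the vacuolar protein sorting genes (Vps) of the mouse, which encode much of the machinery that moves membrane proteins out of endosomes. They were chosen by name alone, as protein-coding genes whose GRCm38 symbol is Snx or Vps followed by a number and, for Vps, at most 1 further letter. The rule found 64 annotated genes, of which 63 (30 Snx and 33 Vps) were among the 52636 genes of the count table, and Vps28 was not analysed here. Of the 63, 62 had enough counts to be tested, among 17286 genes tested in all. Snx31, the sorting nexin of the bladder lining, had 0 counts in all 10 tumours, which allows at most 3 counts per library, or 0.0734 to 0.105 CPM, the counts scaled to library size.

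Polyadenylated RNA was sequenced from 10 mouse tumours labelled as melanoma. All of them carried BrafCA, an allele that Cre turns into oncogenic Braf, together with floxed alleles of the tumour suppressor Cdkn2a (Cdkn2af/f). Arf6Q67L, an ARF6 mutant that stays bound to GTP, was present in 6 tumours, and the 4 tumours without it were the controls. The Cre driver, the promoter of the Arf6Q67L transgene and the age of the mice are not stated in these sources.

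Sorting nexins share the PX domain, a fold that binds phosphoinositides on endosomes, and those with a BAR domain also bend the membrane into tubules. The VPS proteins were first found in yeast mutants that missort vacuolar enzymes, and they build retromer and retriever (recycling of cargo), HOPS and CORVET (tethering before fusion), GARP and EARP (tethering of recycled vesicles) and the ESCRT complexes (sorting into multivesicular bodies). ARF6 acts at the plasma membrane and on recycling endosomes, so that its cargo meets many of these complexes.

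Library totals lay between 28635414 and 40869091 counts, and the members' levels are CPM scaled with TMM factors. The label of the tissue was checked against melanocyte markers. Tyr and Dct had 0 counts in every tumour, and Tyrp1, Mlana and Sox10 were under the filter on low counts. The summed level of the 7 markers was 12.9 to 26.8 CPM in Arf6Q67L tumours and 14.0 to 21.3 CPM in controls. Most of that sum was Mitf in every tumour (11.1 to 26.1 CPM), while Pmel lay at 0.524 to 0.940 CPM. The check thus gave the label little support. Arf6 itself lay between 74.7 and 130 CPM in Arf6Q67L tumours and between 68.6 and 106 CPM in controls. Whether the transcript of the transgene counts towards Arf6 is not stated, so this level checks no label. The labels do not say whether the tumours came from separate animals, so p-values measure the spread between these tumours only.

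No member passed the test between the genotypes. With edgeR's quasi-likelihood test and Benjamini-Hochberg adjustment over all genes tested, 0 of 62 members had an adjusted p under 0.05, and neither did any other gene (0.0% of 17286). Adjusted p-values of the members ran from 0.400 to 0.995 in edgeR. An unadjusted edgeR p under 0.05 was found for 2 of 62 members (3.23%), Vps50 with a positive and Snx20 with a negative log2 fold change, beside 11.7% of all genes tested (4.65% with a positive and 7.05% with a negative log2 fold change). That count was 0 without Arf6Q67L tumour 2, 5 without Arf6Q67L tumour 5, and between 1 and 3 without any other single tumour. Shares over all genes tested are not given for these smaller fits, so their counts have nothing to be read against. DESeq2 gave 0 of 62 members an adjusted p under 0.05, beside 2.39% of all genes tested, and 4 of 62 (6.45%) an unadjusted one, beside 14.1%. In 0 of 62 members did all 6 Arf6Q67L tumours lie above or below all 4 controls, beside 2.44% of all genes tested.

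Fold changes of the members were small, and their intervals were narrow. The log2 fold change of Arf6Q67L over control was positive in 35 members and negative in 27, with a median of 0.02 beside -0.0018 for all genes tested. In 58 of 62 members (93.5%) the 95% interval of the fold change lay wholly within 2-fold in either direction, beside 64.1% of all genes tested and 85.8% of protein-coding genes in the middle of the members' range of levels. Within 1.5-fold the count was 50 of 62 (80.6%), beside 46.0% of protein-coding genes tested and 67.2% of those in the middle of the members' range of levels, where 80.0% of the members were within it. The 4 members whose interval reached past 2-fold were Snx10, Snx20, Snx29 and Vps37d. Summed over all members, the level was 3778 ± 154 CPM in Arf6Q67L tumours (SD, n = 6) and 3748 ± 186 CPM in controls (SD, n = 4).

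**Figure D1:**
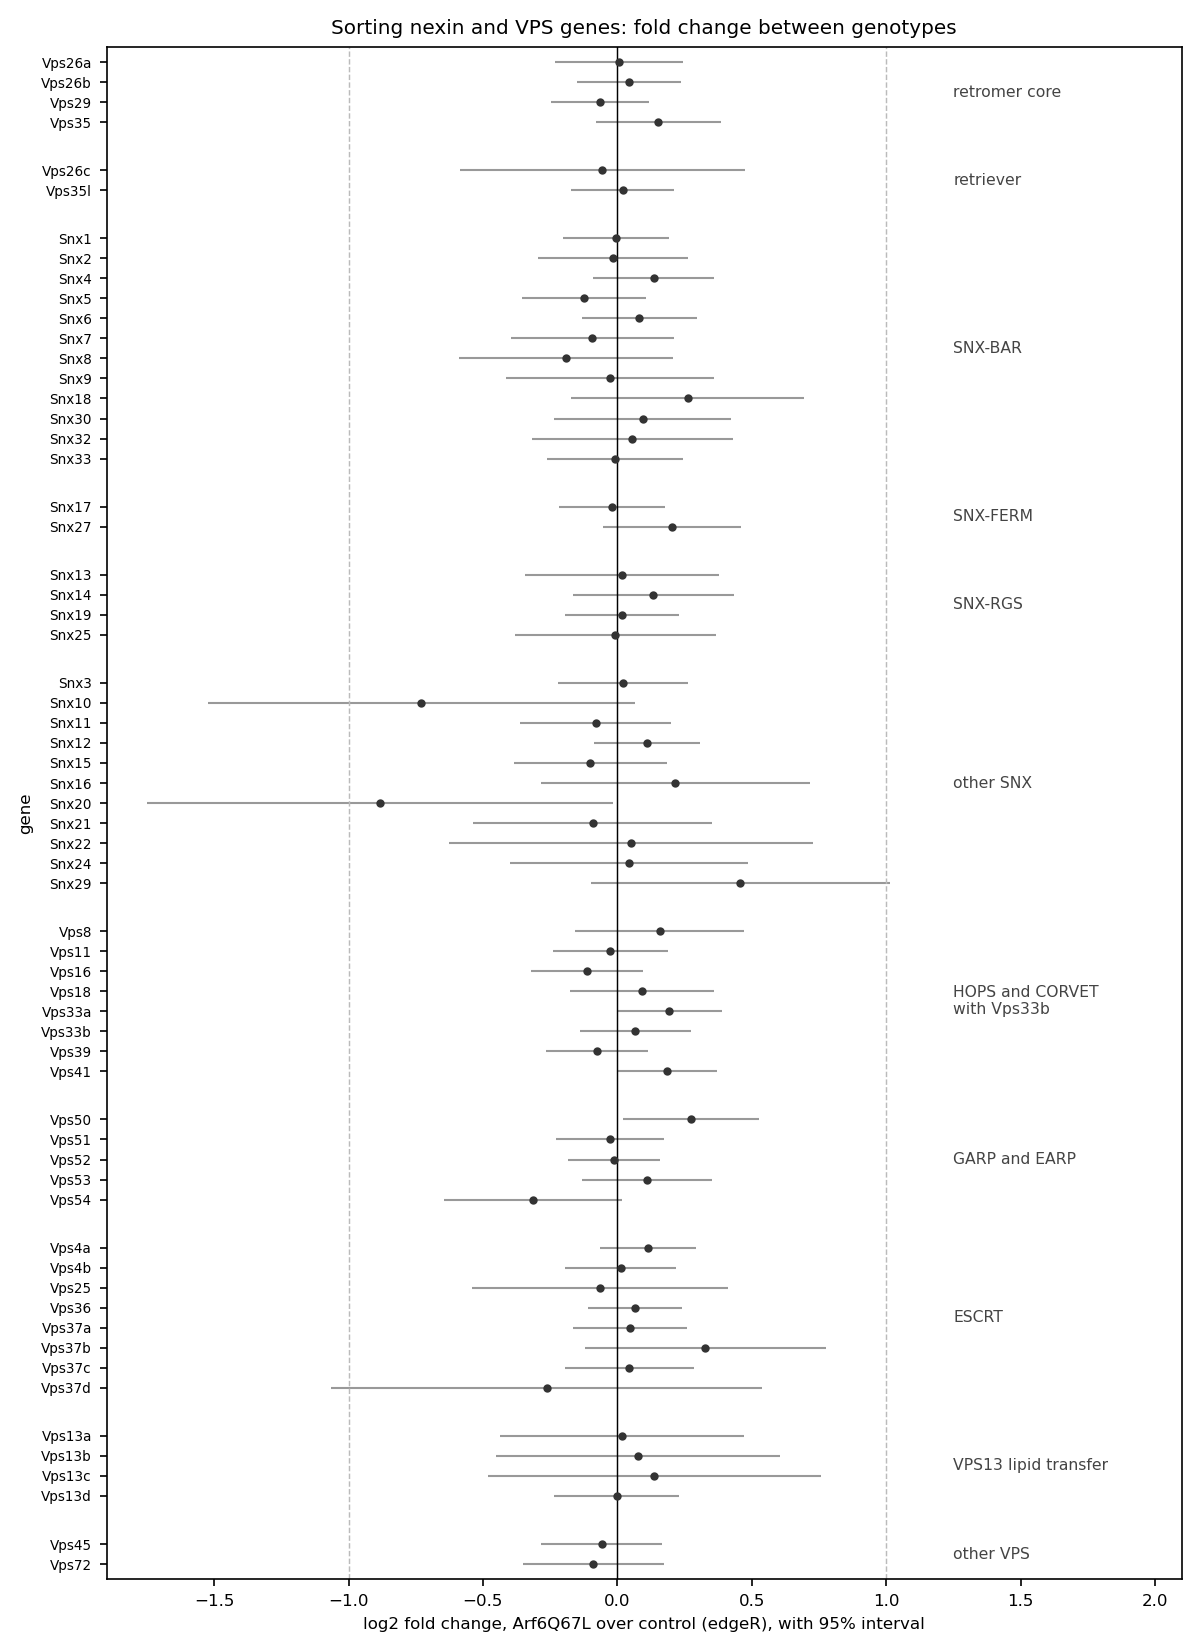
Log2 fold change of Arf6Q67L (6 tumours) over control (4 tumours) for each of the 62 tested members (points), grouped by role, with the 95% interval from edgeR (lines). Dashed lines mark 2-fold in either direction, and 58 of the 62 intervals lie between them.

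Retromer, the complex that carries receptors such as the mannose 6-phosphate receptor out of endosomes, showed no difference past the spread between tumours in any of its 4 core genes. Vps35 encodes the long scaffold on which the complex is built (chromosome 8, 85260392 to 85299802, minus strand, GRCm38). Its level was 218, 191, 164 and 184 CPM in controls 1 to 4, and in the Arf6Q67L tumours the lowest was 177, the median 217 and the highest 229 CPM. Control 3 was the lowest of all tumours, 3 of 6 Arf6Q67L tumours lay above every control, and the groups overlapped. The means were 210 ± 19.2 CPM (SD, n = 6) and 189 ± 22.2 CPM (SD, n = 4). Vps35 thus had a log2 fold change of 0.15 (SE 0.11, 95% interval -0.08 to 0.39) and an adjusted edgeR p of 0.608.

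Vps26a encodes the more widely used of the arrestin-like subunits that touch the cargo adaptors (chromosome 10, 62455235 to 62486805, minus strand). Its level in controls 1 to 4 was 90.6, 97.3, 89.7 and 113 CPM, and in Arf6Q67L tumours it had a lowest value of 85.3, a median of 95.1 and a highest value of 118 CPM. The highest and the lowest tumour of all 10 were both Arf6Q67L tumours, and the log2 fold change was 0.01 (SE 0.11, 95% interval -0.23 to 0.24). Vps26b, its paralogue (chromosome 9, 27007771 to 27030065, minus strand), stood at 50.6, 63.9, 58.1 and 55.2 CPM in the controls, and at 52.4 (lowest), 58.4 (median) and 63.3 CPM (highest) in Arf6Q67L tumours. All 6 Arf6Q67L values fell inside the range of the controls, with a log2 fold change of 0.04 (SE 0.09, 95% interval -0.15 to 0.24).

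Vps29 encodes a subunit folded like a phosphoesterase that sits at the far end of VPS35 (chromosome 5, 122354369 to 122364984, plus strand). Controls 1 to 4 had 76.8, 80.5, 75.4 and 86.2 CPM, and the Arf6Q67L tumours had a lowest value of 68.6, a median of 75.9 and a highest value of 83.4 CPM. Groups overlapped here too, since 3 of 6 Arf6Q67L tumours lay below every control and 3 did not. The log2 fold change was -0.06 (SE 0.08, 95% interval -0.25 to 0.12), the narrowest interval of the 4 genes. Added up, the 4 retromer genes came to 443 ± 23.0 CPM in Arf6Q67L tumours (SD, n = 6) and 423 ± 24.2 CPM in controls (SD, n = 4).

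**Figure D2:**
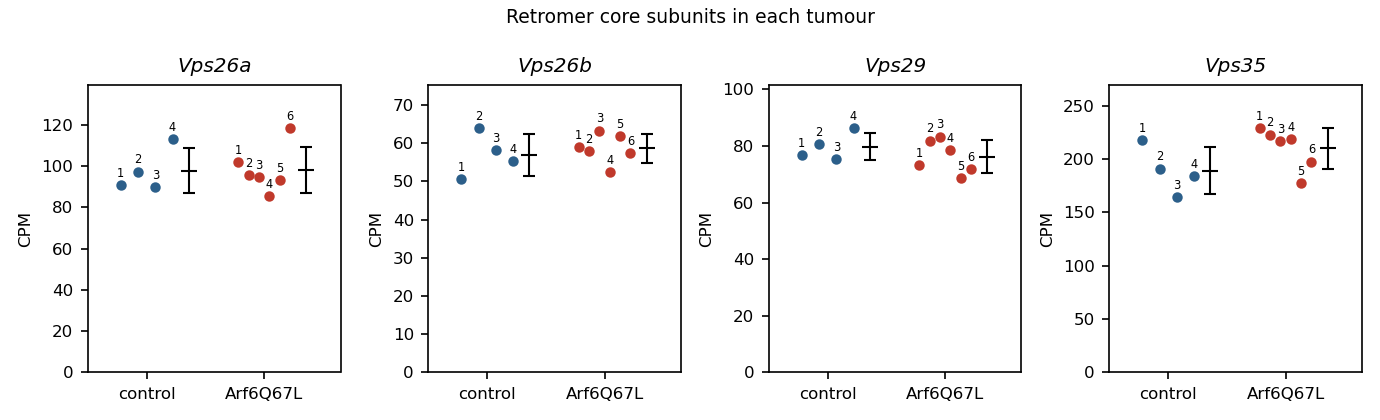
CPM (vertical axis, from 0) of the 4 retromer core genes in each of the 4 control and 6 Arf6Q67L tumours (numbered points), with the mean and SD of each group beside them. The groups overlap in all 4 genes, and Vps35 is the most abundant, at 164 to 229 CPM.

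The balance between paralogues was compared as well, as a description with no test. Counted per kilobase of exon, Vps26a made up 74.8% ± 2.15 of the sum of Vps26a and Vps26b in Arf6Q67L tumours (SD, n = 6) and 75.3% ± 2.56 in controls (SD, n = 4). Vps4a, one of the ATPases that take ESCRT filaments apart, made up 61.7% ± 2.57 and 60.2% ± 3.41 of its sum with Vps4b. The share of Snx1 in its sum with Snx2, which partly replace each other in the SNX-BAR coat, was 39.7% ± 3.42 and 39.4% ± 3.01. Snx5 held 63.5% ± 2.83 of its sum with Snx6 in Arf6Q67L tumours and 66.7% ± 3.20 in controls. For Snx9 with Snx18, endocytic nexins with an SH3 domain, the share of Snx9 was 81.2% ± 3.60 and 83.9% ± 2.29. Vps33a held 67.6% ± 2.67 and 65.7% ± 0.706 of its sum with Vps33b. In all 6 pairs the ranges of the 2 genotypes overlapped. About 26.3% of the longest Snx2 transcript has a near-identical copy elsewhere in the annotation (Gm12543 and Snx30), so the counts of Snx2 are less certain.

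Among the nexins with a BAR domain, 5 of 12 log2 fold changes were positive and 7 negative, from -0.19 (Snx8) to 0.26 (Snx18). An unadjusted edgeR p under 0.05 was found for 0 of 12, beside 11.7% of all genes tested. The BAR-domain nexins were the most abundant role, at 1223 ± 63.9 CPM in Arf6Q67L tumours (SD, n = 6) and 1234 ± 76.6 CPM in controls (SD, n = 4). Per kilobase of exon, Snx5 (80.4 CPM per kb), which binds the tails of receptors recycled by the coat, was the highest member of all. Snx3, which leads retromer to the Wnt carrier Wntless, came next at 62.3 CPM per kb, and Snx9, which drives late steps of endocytosis, followed at 58.0 CPM per kb. Snx3 ran from 76.4 to 101 CPM over all tumours, and both of these extremes were controls.

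The lowest levels per length beside Snx31 were those of Vps25 (0.465 CPM per kb) and Snx22 (0.665 CPM per kb). Vps25 encodes an ESCRT-II subunit, and 67.2% of its exonic bases are shared with Ramp2 on the same strand, so reads there may have been left out or split by the counting and its level is uncertain. Snx22 shares 28.5% of its exonic bases with Ppib on the other strand. Since the strand setting of the counting is not stated, this level is uncertain as well.

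Of the FERM-domain nexins, Snx27, which couples retromer to receptors with a PDZ-binding tail, had 97.8 ± 13.6 CPM in Arf6Q67L tumours (SD, n = 6) and 85.0 ± 6.82 CPM in controls (SD, n = 4), a difference of 0.20 on the log2 scale (SE 0.12). Snx17, the adaptor of retriever for integrins, had 84.6 ± 8.82 and 85.7 ± 2.67 CPM, and 4 of 6 Arf6Q67L tumours lay below every control while the other two lay above every control. Retriever itself was represented by Vps35l, at 68.2 to 87.6 CPM in Arf6Q67L tumours and 73.2 to 82.2 CPM in controls, and by Vps26c, described further on. The 4 nexins of the SNX-RGS subfamily (Snx13, Snx14, Snx19 and Snx25) had log2 fold changes between -0.01 and 0.13.

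The member of smallest p was Vps50, of GARP and EARP, tethers that share VPS51, VPS52 and VPS53 and differ in the last subunit: VPS50 makes EARP, which acts in recycling to the cell surface, and VPS54 makes GARP, which acts at the trans-Golgi network. Vps50 (chromosome 6, 3498382 to 3603531, plus strand) had 49.2, 56.7, 44.3 and 45.2 CPM in controls 1 to 4. In Arf6Q67L tumours its lowest value was 50.7, the median 56.7 and the highest 69.2 CPM. Control 2 stood above the other controls, 3 of 6 Arf6Q67L tumours lay above every control, and the groups overlapped. Means were 59.1 ± 7.29 CPM (SD, n = 6) and 48.8 ± 5.63 CPM (SD, n = 4). On the log2 scale the difference was 0.27 (SE 0.11, 95% interval 0.02 to 0.53), with an unadjusted edgeR p of 0.0368 and an adjusted p of 0.400.

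Vps54 (chromosome 11, 21239281 to 21321136, plus strand), named after its values were seen, stood at 88.5, 78.3, 62.3 and 102 CPM in controls 1 to 4. Arf6Q67L tumours ranged from 48.8 through a median of 69.5 to 72.6 CPM. In 5 of them the level lay between 67.8 and 72.6 CPM, inside the range of the controls, and tumour 3 lay below every control. For Vps54 the log2 fold change was -0.31 (SE 0.15), with an unadjusted edgeR p of 0.0611 and an adjusted p of 0.451. It was -0.19 without control 4 and -0.43 without control 3. The shared subunits Vps51, Vps52 and Vps53 had log2 fold changes of -0.03, -0.01 and 0.11, each inside an interval narrower than 1.5-fold in either direction. Whether the difference of Vps50 differs from that of Vps54 was not tested.

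HOPS and CORVET, which tether late and early endosomes before they fuse, held 8 members together with Vps33b, and 5 of their log2 fold changes were positive and 3 negative. Vps41, a HOPS subunit, and Vps33a, which guides SNARE assembly within both complexes, had the smallest p-values of the 8 and were named after their values were seen. Vps41 had 90.1, 92.5, 85.9 and 90.0 CPM in controls 1 to 4 and a lowest value of 90.3, a median of 105 and a highest value of 112 CPM in Arf6Q67L tumours. The controls lay close together, and 4 of 6 Arf6Q67L tumours lay above all of them. On the log2 scale Vps41 differed by 0.18 (SE 0.08), with an unadjusted edgeR p of 0.0504 and an adjusted p of 0.429.

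Vps33a had 46.2, 45.8, 41.4 and 47.3 CPM in the controls, and 43.7 (lowest), 53.2 (median) and 55.5 CPM (highest) in Arf6Q67L tumours. Here 5 of 6 Arf6Q67L tumours lay above every control, and tumour 4 lay inside their range. For Vps33a the log2 fold change was 0.19 (SE 0.09), with an unadjusted edgeR p of 0.0523 and an adjusted p of 0.433. Vps33b, which pairs with VIPAS39 in a separate complex, had the lowest SD of the members within groups, 0.087 on the log2 scale, and its highest tumour was 1.19-fold above the lowest. Vps39, the HOPS subunit that binds RAB7, had a log2 fold change of -0.08, and Vps8, the counterpart of Vps41 in CORVET, one of 0.16.

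**Figure D3:**
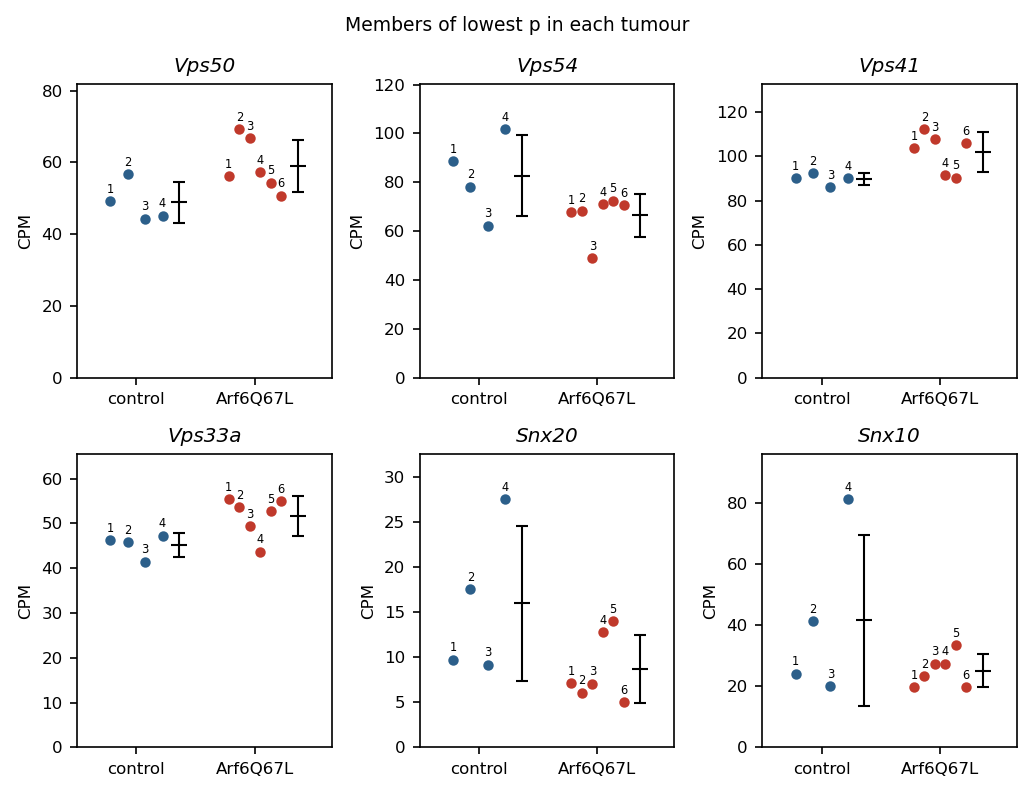
CPM (vertical axes, from 0) of the 6 members of lowest unadjusted p in each control and Arf6Q67L tumour (numbered points), with the mean and SD of each group. The groups overlap in all 6, and control 4 stands far above the other tumours in Snx10 and Snx20.

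Snx20, a nexin that binds the leukocyte adhesion molecule PSGL-1, had the largest fold change of the members (chromosome 8, 88626563 to 88636128, minus strand). Its level was 9.74, 17.6, 9.16 and 27.5 CPM in controls 1 to 4, and in Arf6Q67L tumours the lowest was 5.03, the median 7.09 and the highest 14.0 CPM. Controls 4 and 2 were the highest of all tumours, 4 of 6 Arf6Q67L tumours lay below every control, and the groups overlapped. Means were 8.67 ± 3.75 CPM (SD, n = 6) and 16.0 ± 8.60 CPM (SD, n = 4). The difference on the log2 scale was -0.88 (SE 0.39, 95% interval -1.75 to -0.02), with an unadjusted edgeR p of 0.0467 and an adjusted p of 0.422. Without control 4 the log2 fold change was -0.48.

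Snx10, which binds the proton pump of endosomes and is needed by bone-resorbing osteoclasts, followed the same tumours and was named after its values were seen. Controls 1 to 4 had 24.2, 41.3, 20.1 and 81.4 CPM, and the Arf6Q67L tumours ranged from 19.7 through a median of 25.4 to 33.5 CPM. Control 4 stood far above all other tumours, control 2 came next, and the other controls lay within the range of the Arf6Q67L tumours. For Snx10 the log2 fold change was -0.73 (SE 0.36) with an unadjusted edgeR p of 0.0677, and it was -0.17 without control 4.

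Summed markers of leukocytes in general, of macrophages and of T cells were highest in the same pair of controls. All 8 leukocyte markers measured (Ptprc, Coro1a, Laptm5, Lcp1, Cd53, Cd52, Cd48 and Ikzf1) had negative log2 fold changes, with a median of -0.99, and none was at 0 in any tumour. Their summed level was 709, 1329, 697 and 2078 CPM in controls 1 to 4 and 509 to 972 CPM in Arf6Q67L tumours. Of 9 macrophage markers, 8 had negative log2 fold changes, and their sum was 1513, 2382, 1334 and 3567 CPM in controls 1 to 4 against 797 to 1830 CPM in Arf6Q67L tumours. All 8 T cell markers had negative log2 fold changes, with a median of -2.10. Their sum was 53.1, 283, 71.6 and 378 CPM in controls 1 to 4 against 25.3 to 105 CPM in Arf6Q67L tumours. Not every gene did so: the macrophage marker Mrc1 had 494, 329, 236 and 246 CPM in controls 1 to 4. It had 116 to 770 CPM in Arf6Q67L tumours. Cd53 was at 127 CPM in control 2 and at 162 CPM in Arf6Q67L tumour 3. Laptm5 was at 300 CPM in control 2 and at 306 CPM in Arf6Q67L tumour 4. Sums of the neutrophil and mast cell lists were not highest in controls 2 and 4. The summed neutrophil markers were 238, 40.7, 73.4 and 55.9 CPM in controls 1 to 4 and 9.52 to 90.6 CPM in Arf6Q67L tumours. All 6 mast cell markers had positive log2 fold changes, with a median of 3.03 and sums of 40.7 to 667 CPM in Arf6Q67L tumours and 14.2 to 68.1 CPM in controls. Control 4 was also the highest tumour in summed skeletal muscle (904 CPM), pericyte and smooth muscle (224 CPM) and adipocyte markers (186 CPM). The same held for B cell (18.7 CPM) and Schwann cell markers (15.7 CPM). Melanocyte, endothelial, fibroblast and keratinocyte sums were highest in other tumours. The part of any of these cells in the values of Snx20 and Snx10 was not tested, and in bulk tumour RNA fewer cells of a type and less RNA per cell cannot be told apart.

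The ESCRT members held 6 positive and 2 negative log2 fold changes among 8. Of these members, 0 of 8 had an unadjusted edgeR p under 0.05, beside 11.7% of all genes tested. Vps4a and Vps4b, the ATPases, had log2 fold changes of 0.11 (SE 0.08) and 0.01 (SE 0.09). Of the ESCRT-I subunits, Vps37a and Vps37c had log2 fold changes of 0.05 and 0.04, while Vps37b had 37.0 ± 11.2 CPM in Arf6Q67L tumours (SD, n = 6) and 29.5 ± 0.613 CPM in controls (SD, n = 4). Its 4 controls lay between 28.8 and 30.1 CPM, 4 of 6 Arf6Q67L tumours lay above them and the other two below, and the log2 fold change was 0.33 (SE 0.20). Exons of Vps37b share 42.5% of their bases with Hip1r and Gm37939 on the other strand. Vps37d was scarce, at 2.20 to 6.46 CPM.

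The VPS13 proteins are long bridges along which lipids flow between membranes, and 3 of their 4 genes varied widely between tumours. Log2 fold changes were 0.02 (Vps13a), 0.08 (Vps13b), 0.14 (Vps13c) and -0.003 (Vps13d). Vps13c ran from 31.4 CPM in Arf6Q67L tumour 5 to 78.0 CPM in tumour 1, a 2.48-fold range within 1 genotype. All 4 genes have over 15000 exonic bases, and the 320 protein-coding genes of that length among 10325 with a mean log2 CPM above 3 had a median log2 fold change of 0.13, with tumour medians from -0.13 (control 3) to 0.24 (Arf6Q67L tumour 1). Those under 2000 bases had a median log2 fold change of -0.12. Vps50, the member of smallest p, has 10856 exonic bases, and the 848 genes of 10000 to 15000 bases had a median log2 fold change of 0.08. The part of transcript length in the values of the Vps13 genes and of Vps50 was not tested. Of the last members, Vps45, which guides SNAREs at endosomes, had a log2 fold change of -0.06, and Vps72, whose protein is a subunit of chromatin remodelling complexes despite its name, one of -0.09.

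**Figure D4:**
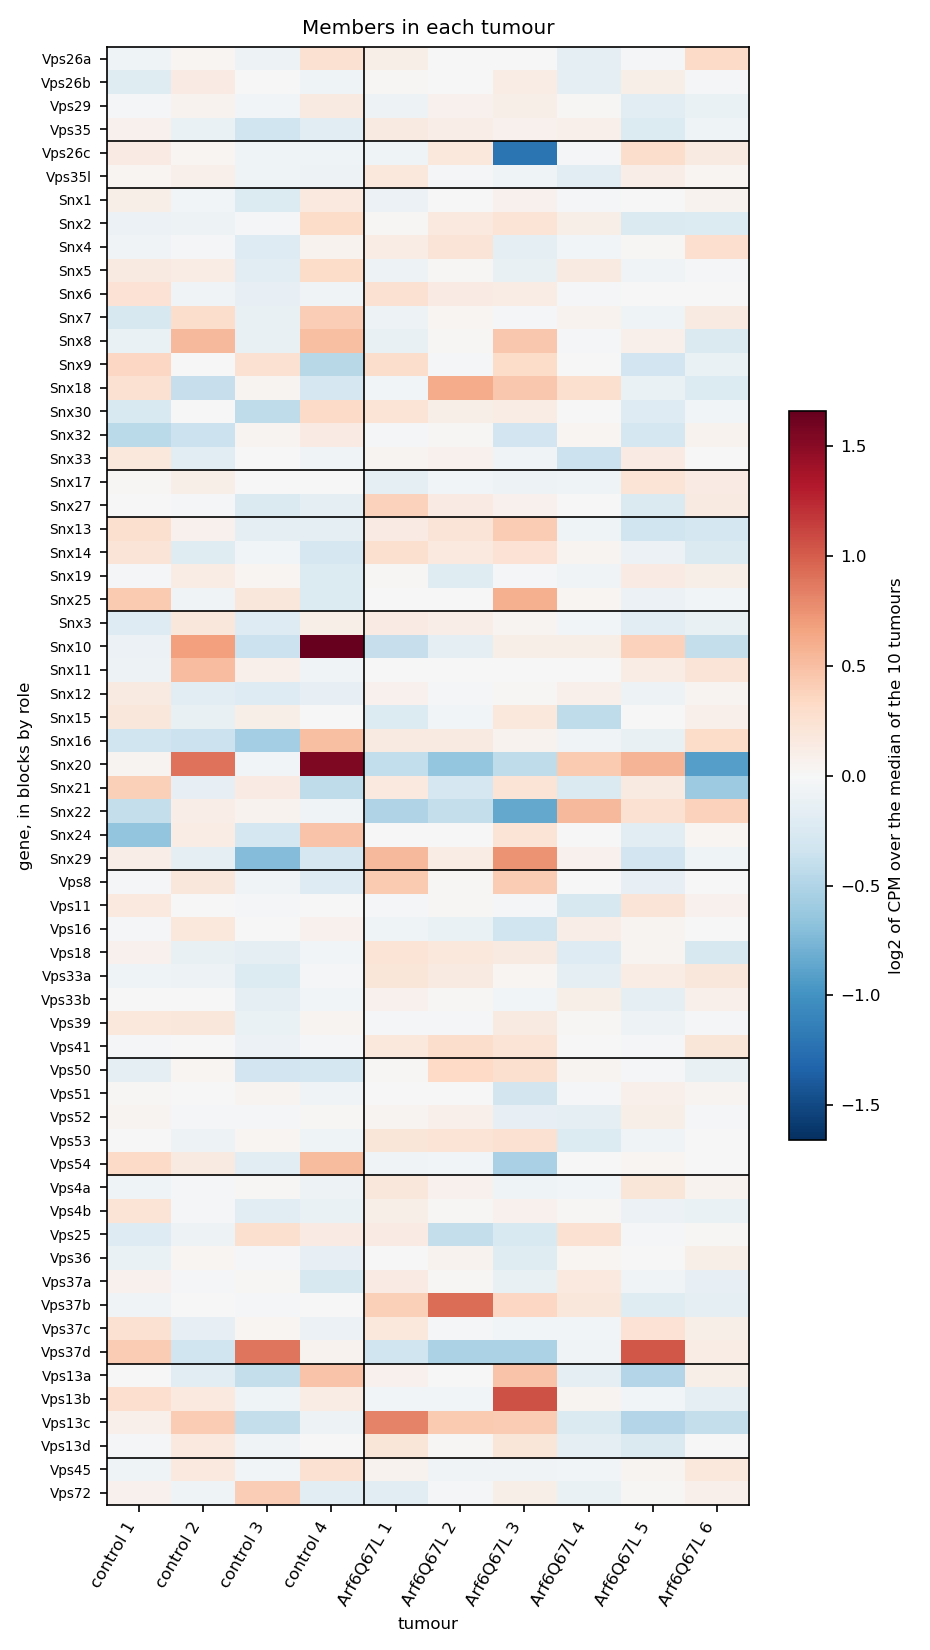
Level of each of the 62 tested members (rows, in blocks by role) in each tumour (columns, controls left of the line), coloured by log2 of CPM over the median of the 10 tumours. Most squares are pale, and the darkest are Vps26c and Vps13b in Arf6Q67L tumour 3 and Snx10 and Snx20 in control 4.

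The median member varied less within groups than the median gene tested, and a few members stood far apart in 1 tumour. The median SD within groups was 0.17 on the log2 scale for the members, beside 0.30 for protein-coding genes tested and 0.34 for all genes tested. In the middle of the members' range of levels it was 0.16 for 30 members and 0.21 for 4050 protein-coding genes. Only 5 of 620 pairs of a member and a tumour lay more than 1 log2 unit from the median of the 10 tumours: Snx10 (1.66) and Snx20 (1.54) in control 4, Vps26c (-1.21) and Vps13b (1.06) in Arf6Q67L tumour 3, and Vps37d (1.02) in Arf6Q67L tumour 5. The widest ranges were those of Snx20 (5.47-fold from lowest to highest tumour) and Snx10 (4.14-fold), then Vps37d (2.93-fold) and Vps26c (2.83-fold).

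Vps26c, the arrestin-like subunit of retriever (chromosome 16, 94497783 to 94526830, minus strand), was named after its values were seen. Controls 1 to 4 had 103, 95.7, 88.4 and 88.4 CPM, and the Arf6Q67L tumours other than tumour 3 had 88.4 to 114 CPM. Tumour 3 had 40.3 CPM. The log2 fold change between the genotypes was -0.06 (SE 0.24) with all tumours and 0.11 without tumour 3.

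The genes around Vps26c were low in that tumour as well. Among 23 tested protein-coding genes whose start lies within 2 Mb of it, the median in tumour 3 was -0.87 on the log2 scale relative to the median of the 10 tumours, and 20 of 23 were below 0. A value under -0.4 was seen for 18 of 23 neighbours in tumour 3 and for 0 to 6 in each other tumour. Dyrk1a, the nearest neighbour at 0.04 Mb, was at -1.03, Pigp at -0.96 and Hmgn1, at 1.60 Mb, at -1.07. The median over 441 genes of chromosome 16 was -0.09 in tumour 3, so the low values did not extend over the whole chromosome. Of the 620 pairs of a member and a tumour, 1 had neighbours whose median was more than 0.5 from 0, namely this one. Past 0.3 there were 7 pairs. The next largest was Vps50, also in Arf6Q67L tumour 3, where its neighbours had a median of -0.43 and 10 of 13 were below 0. Vps50 itself was at 0.27 there. DNA copy number was not measured in these files, and its part was not tested.

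**Figure D5:**
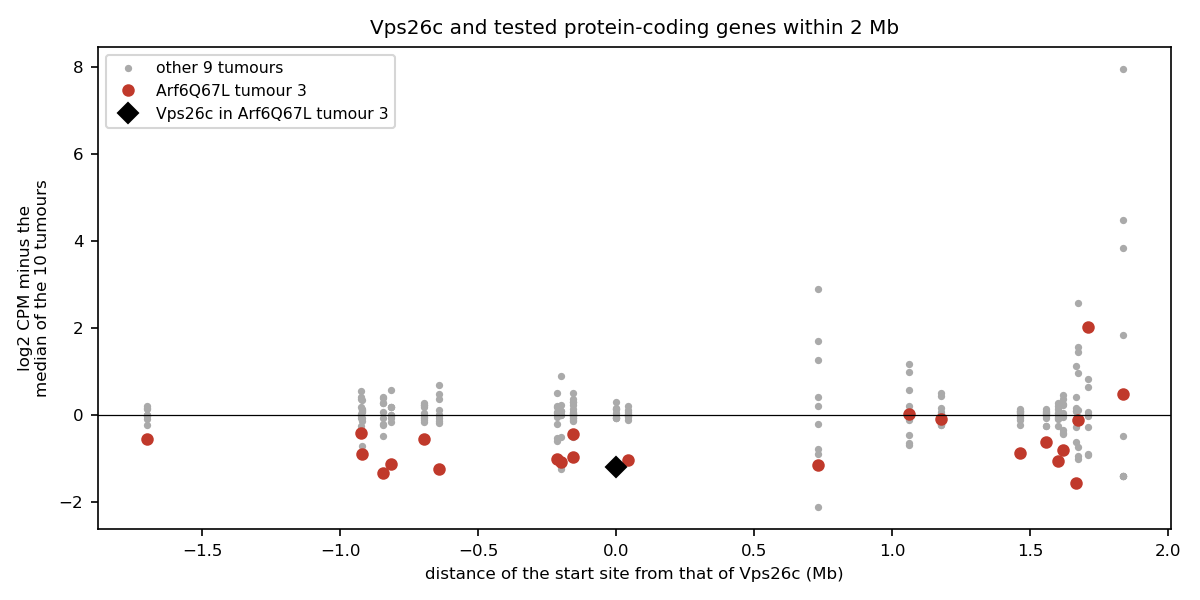
Log2 CPM of Vps26c (diamond) and of 23 tested protein-coding genes within 2 Mb, each minus its median over the 10 tumours, against the distance of the start sites in Mb. In Arf6Q67L tumour 3 (red) 20 of 23 neighbours lie below 0, with a median of -0.87, and grey points are the other 9 tumours.

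Vps13b (chromosome 15, 35371160 to 35931229, plus strand) was high in the same tumour. It stood at 103 CPM in Arf6Q67L tumour 3, at 44.0 to 50.9 CPM in the other Arf6Q67L tumours and at 59.6, 54.9, 46.8 and 53.7 CPM in controls 1 to 4. Its own deviation in tumour 3 was 1.06, while the 19 tested protein-coding genes whose start lies within 2 Mb had a median of 0.19, with 4 of 19 below 0, and the 550 tested protein-coding genes of chromosome 15 a median of 0.23. The neighbours were not uniform in tumour 3: the highest were the nearest, Osr2 at -0.08 Mb, at 3.95, Pabpc1 at 0.80 and Stk3 at 0.63. The lowest were Nipal2 at -0.48 and Matn2 at -0.38. Stk3 was higher in control 1, at 0.699. Medians of the neighbours were 0.25, 0.18, 0.19 and -0.13 in controls 1 to 4, and -0.35 to 0.01 in the other Arf6Q67L tumours. Those of chromosome 15 were 0.14, 0.16, 0.16 and -0.18 in controls 1 to 4. The log2 fold change of Vps13b between the genotypes was 0.08 with all tumours and -0.16 without tumour 3.

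Promoter sequence was set beside these values for the members that the RefSeq promoter table holds, 43 members with 53 windows of 250 bases before the start (GRCm38.p6). The palindrome GTCACGTGAC, known from lysosomal gene promoters where helix-loop-helix factors of the TFEB family bind, was sought on both strands. It lay in 4 windows of 3 members, a HOPS scaffold, the SNARE-guiding HOPS subunit and a retromer subunit, beside 0.24% of all 32851 windows. These stretches are shown because they are the members that carry the palindrome, which is in capitals, and each is written 5′ to 3′ along the strand of the gene.
Vps16 (chr2:130424290-130424319, plus strand): aggcggcctcGTCACGTGACcccgaagggc
Vps33a (chr5:123573016-123573039, minus strand): tgaacgtcccGTCACGTGACgcag
Vps26a, first start site (chr10:62486970-62486999, minus strand): cgcacggctcGTCACGTGACaactagctct
Vps26a, second start site (chr10:62486732-62486761, minus strand): atggcctacgGTCACGTGACgggcggcggg
The palindrome began 20 bases before the start in Vps16, 14 in Vps33a, and 184 and 153 before the start sites of Vps26a. Log2 fold changes of the 3 genes were -0.11 (Vps16), 0.19 (Vps33a) and 0.01 (Vps26a). Its core CACGTG, which the palindrome contains, was in 7 of the 53 member windows, beside 6.02% of all windows. These belonged to 6 members (Snx5, Snx8, Snx18, Vps16, Vps26a and Vps33a), with log2 fold changes from -0.19 to 0.26. GAAANNGAAA, a repeat found at interferon-regulated promoters, was in 3 of the 53 member windows (Snx10, Vps26a and Vps41), beside 2.98% of all windows. A match describes letters only and says nothing of binding in these tumours.

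The partners of the members were read from 5 lists, and edgeR called 0 genes in each. Of 17 tested genes of the WASH complex, which makes actin on endosomes, and of the CCC complex of retriever, 9 had positive and 8 negative log2 fold changes, with a median of 0.02. The 22 other ESCRT genes had a median of 0.11, and 3 of 22 had an unadjusted edgeR p under 0.05, 2 of them with a positive log2 fold change, beside 11.7% of all genes tested. The first of these was Chmp4c, an ESCRT-III subunit of the abscission checkpoint, with 7.70 ± 5.72 CPM in Arf6Q67L tumours (SD, n = 6) and 2.04 ± 1.09 CPM in controls (SD, n = 4). That is 1.92 on the log2 scale (SE 0.62), and the adjusted p was 0.323 with edgeR and 0.0422 with DESeq2. DESeq2 called 2.39% of all genes tested. The groups overlapped: Chmp4c had 16.2 and 13.3 CPM in Arf6Q67L tumours 1 and 2, and 4.76 and 6.18 CPM in tumours 5 and 6. Tumours 3 and 4, at 3.48 and 2.19 CPM, lay inside the range of the controls (1.04 to 3.52 CPM). Stam, a subunit that hands ubiquitinated cargo to ESCRT-I, was at 0.39 (SE 0.17), and Chmp2a at -0.30 (SE 0.11). Exons of the member Snx16 share 12.5% of their bases with Chmp4c on the other strand, and Snx16 had a log2 fold change of 0.22 (SE 0.23).

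Among 24 tethers, SNAREs and RAB partners the median log2 fold change was -0.04, and 2 of 24 genes had an unadjusted edgeR p under 0.05, beside 11.7% of all genes tested. These were Rab5c, a GTPase of early endosomes, at -0.27 (SE 0.11), and Vamp8, a SNARE of late endosomes, at -0.52 (SE 0.23). Vamp8 was highest in control 4, at 127 CPM, where the leukocyte and macrophage markers were highest too, and their part was not tested. The 14 genes of enzymes that make and remove endosomal phosphoinositides, and of their partner subunits, had a median of 0.003. Among them Mtmr4, a phosphatase of the lipid that PX domains bind, was at 0.24 (SE 0.09). The 18 cargo proteins of retromer and the sorting nexins had a median of 0.07. An unadjusted edgeR p under 0.05 was found for 0 of 18, beside 11.7% of all genes tested. Wls, the Wnt carrier that retromer recycles with SNX3, was at 0.23 (SE 0.13) and Egfr at -0.40 (SE 0.27).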

How the data were processed

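The deposited table held raw counts per mouse Ensembl gene. Per the submitters' processing notes, GRCm38 was the build, and featureCounts 1.5.1, STAR 2.5.2b and DESeq2 1.18.0 were among the tools, with no role given. Libraries were made with a stranded polyA kit, per the labels' protocols. The sources used here do not give the strand setting or the treatment of multi-mapping reads.

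Counts were tested with edgeR 4.0.16 in R 4.3.3 on all 10 tumours: filterByExpr (minimum count 10), TMM factors, robust glmQLFit and glmQLFTest with genotype as the only term, and Benjamini-Hochberg adjustment over 17286 genes at 0.05. The SE is the log2 fold change over the root of F, and intervals use the quasi-likelihood degrees of freedom. The common biological coefficient of variation was 0.416. Intervals and floors (3 counts) take each read as a separate molecule, which no molecular identifier checks; floors cover counting error only. The step was also run on simulated data, and no outcome of that run is given or used here. DESeq2 1.42.0, limma 3.58.1 (voom with quality weights), RLE factors, no filter and leaving out each tumour were the alternatives.

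Symbols, coordinates and exon lengths came from a GENCODE annotation of GRCm38, which held 52489 of the table's identifiers. Levels per length are CPM over the union of a gene's exons. Promoters are RefSeq windows of GRCm38.p6. Groups came from the genotype label, and tumour numbers follow accession order. A tumour's deviation is its log2 CPM minus the median of the 10 tumours.

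Members and lists were chosen with earlier results of these data known. Values in every tumour were due for the retromer core, for members with an unadjusted p under 0.05 and for those whose groups did not overlap. The 3 highest and 3 lowest members per length, 6 paralogue pairs and up to 3 genes of lowest p in each direction of a partner list were also to be named. Vps41, Vps33a, Vps54, Snx10, Vps26c and Vps13b were chosen for such detail after their values were seen, as were the neighbours of Vps26c and Vps13b.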

Additional observations from a re-analysis of the deposited data

Results flagged for a closer look

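In 8 of 124 groups (6.45%), 1 tumour lay farther from the rest of its genotype than Dixon's test allows at its 95% level, and chance alone sets about 1 in 20 groups apart. The test compares the gap between the extreme tumour and its nearest neighbour with the whole range of the group. Of the 8 values, 5 belonged to Arf6Q67L tumour 3. There, Vps54 was at 48.8 CPM (other Arf6Q67L tumours 67.8 to 72.6), Vps26c at 40.3 CPM (88.4 to 114) and Vps51 at 22.7 CPM (27.6 to 29.6). In the same tumour Vps13b was at 103 CPM (44.0 to 50.9) and Snx25 at 49.8 CPM (31.1 to 33.9). Control 4 gave 2 more, Snx16 at 7.68 CPM (other controls 3.66 to 4.31) and Snx2 at 164 CPM (124 to 130). The last was Vps37d in Arf6Q67L tumour 5, at 6.46 CPM (2.20 to 3.43).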

How the results depend on the processing

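In all 15 fits (edgeR as reported and 14 alternatives) 0 of 62 members had an adjusted p under 0.05, and the lowest adjusted p of any member was 0.243 (Vps50, DESeq2). The sign of the fold change was the same in all 15 fits for 29 of 62 members. The count of members with an unadjusted p under 0.05 was 2 as reported, beside 11.7% of all genes tested, and 4 with DESeq2, beside 14.1%. It was 4 with RLE factors, 0 with limma-voom and from 0 to 5 when a tumour was left out. The count of members whose groups did not overlap was 0 as reported, beside 2.44% of all genes tested. It ran from 0 to 2 when a tumour was left out, where a smaller group overlaps less easily by construction. For RLE factors, limma-voom and the fits without a tumour, shares over all genes tested are not given. Whether those counts lie above or below such shares is therefore not known here. Over protein-coding genes, 356 passed with DESeq2 and 1 with limma-voom, against 0 as reported and 0 when any tumour was left out. DESeq2 called 1 of the 22 other ESCRT genes, Chmp4c, beside 2.39% of all genes tested. The cause of these differences was not tested. Sign changes were seen for Vps26a (-0.00394 with limma-voom, and from -0.0470 to 0.0937 when a tumour was left out), Vps26b (-0.0286 with limma-voom, and from -0.00927 to 0.105) and Vps13b (-0.0501 with limma-voom, and from -0.164 to 0.148). Vps26c ran from -0.133 to 0.110. The negative fold changes of Snx10 (-0.96 to -0.17), Snx20 (-1.07 to -0.48) and Vps54 (-0.43 to -0.19) and the positive ones of Vps50 (0.23 to 0.36), Vps41 (0.16 to 0.22) and Vps33a (0.15 to 0.24) kept their sign when any 1 tumour was left out. No paired analysis was possible because the tumour numbers follow accession order and pair no tumours. Genotype and the order of the library numbers cannot be separated, and depth sets only a ceiling for Snx31.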
